A study of Homo sapiens with 20 samples.

Results

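Switch sites were the STAG2 binding sites that lost their STAG2 peak after knockdown of STAG2 and carried a STAG1 peak only after it. STAG2 peaks from the 4 STAG2 ChIP-seq lists were merged into 130122 union sites on chromosomes 1 to 22 and X. Of these, 70129 had a peak in both WT lists, and 3492 (4.98%) of the 70129 had none in either STAG2-KD list and were called lost. A lost site was a switch site when no WT STAG1 peak overlapped it in either list and a STAG2-KD STAG1 peak overlapped it in at least 1 list, by at least 1 bp. This left 353 switch sites, or 10.1% of the lost sites and 19.9% of the 1777 lost sites without a WT STAG1 peak. The paper uses the word switch for another set, found by clustering STAG1 changes at sites with significantly reduced STAG2 binding. Values given here for switch sites are therefore not values for the paper's set. Among all union sites without a WT STAG1 peak, 23.8% had a STAG1 peak in at least 1 STAG2-KD list. The sites were thus chosen by their STAG1 and STAG2 peaks, and these values are given below as a description, without a test, as are both percentages.

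The libraries came from M14, an established human melanoma cell line that carries a doxycycline-inducible shRNA against STAG2 in every sample. WT cells were grown without doxycycline and STAG2-KD cells with it, for 5 days per the labels of replicate 1. ChIP-seq was done for STAG1 and STAG2, for SMC1A and for CTCF. Each antibody had 2 WT and 2 STAG2-KD lists, 1 per replicate, which gave 16 lists. The labels give replicates 1 and 2 different chromatin extraction and size selection protocols, by beads and by gel, and nothing in them says which libraries came from the same or from separate cultures. The number of peaks on these chromosomes lay between 58418 and 91489 in the lists of replicate 1 and between 98437 and 150282 in those of replicate 2. The STAG2 lists shrank after knockdown, from 79048 to 58418 peaks (replicate 1) and from 118984 to 106135 (replicate 2). The STAG1 lists grew, from 63479 to 85527 and from 98437 to 104628. With equal numbers of peaks taken from the WT and STAG2-KD list of each antibody in each replicate, 45 switch sites were left. Numbers of peaks then still differed between replicates and antibodies.

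Cohesin is a ring of SMC1A, SMC3 and RAD21 that encloses DNA and extrudes it into loops, and each ring carries either STAG1 or STAG2 as a further subunit. CTCF is a zinc finger protein that binds a long GC-rich motif and halts the ring, so that loop ends and domain boundaries often lie at CTCF sites. STAG2 is recurrently inactivated in cancers, melanoma among them, and cells without it rely on STAG1. SMC1A was read here as the mark of cohesin of either kind, and CTCF as the mark of the sites where rings commonly stop.

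The sequences of 7 switch sites are shown because they span the sites that stood out in the data, from CTCF-bound sites with lasting SMC1A to sites with neither protein. Each is 201 bases of hg19 on the plus strand, centred on the summit of the stronger STAG1 peak in STAG2 KD, and none overlaps an annotated exon. Capitals mark the letters CCNNNAGNNGG on either strand, a looser form of the CTCF core motif, and the AP-1 motif TGANTCA.
RBM19 intron, chr12:114264759-114264959: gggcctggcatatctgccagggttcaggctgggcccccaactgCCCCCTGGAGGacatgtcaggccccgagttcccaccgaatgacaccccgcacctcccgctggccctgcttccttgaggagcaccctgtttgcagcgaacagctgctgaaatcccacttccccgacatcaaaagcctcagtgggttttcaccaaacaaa
Near ADAMTSL1, chr9:17838046-17838246: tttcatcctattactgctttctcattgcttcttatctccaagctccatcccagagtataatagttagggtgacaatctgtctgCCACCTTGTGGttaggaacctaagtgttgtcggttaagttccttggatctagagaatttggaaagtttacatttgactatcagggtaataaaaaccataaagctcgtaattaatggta
NPEPL1 promoter, chr20:57267651-57267851: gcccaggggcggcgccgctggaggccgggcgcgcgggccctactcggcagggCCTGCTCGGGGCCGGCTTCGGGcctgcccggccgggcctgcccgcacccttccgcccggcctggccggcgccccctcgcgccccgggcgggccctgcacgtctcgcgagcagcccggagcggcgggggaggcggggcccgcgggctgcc
Intergenic, chromosome 18, chr18:76644609-76644809: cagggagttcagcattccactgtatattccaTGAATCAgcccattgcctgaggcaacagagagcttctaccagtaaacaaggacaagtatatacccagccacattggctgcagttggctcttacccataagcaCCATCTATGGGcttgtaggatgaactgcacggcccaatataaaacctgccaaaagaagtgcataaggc
Intergenic, chromosome 5, chr5:116992980-116993180: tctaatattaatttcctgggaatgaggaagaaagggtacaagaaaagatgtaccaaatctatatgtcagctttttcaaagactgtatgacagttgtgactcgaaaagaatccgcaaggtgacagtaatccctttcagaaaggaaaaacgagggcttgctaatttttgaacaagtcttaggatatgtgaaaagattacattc
MCM10 intron, chr10:13226327-13226527: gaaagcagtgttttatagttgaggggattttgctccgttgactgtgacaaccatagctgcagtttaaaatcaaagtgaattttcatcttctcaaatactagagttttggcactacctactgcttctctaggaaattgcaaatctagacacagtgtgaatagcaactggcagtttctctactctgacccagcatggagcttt
DISP1 intron, chr1:223170101-223170301: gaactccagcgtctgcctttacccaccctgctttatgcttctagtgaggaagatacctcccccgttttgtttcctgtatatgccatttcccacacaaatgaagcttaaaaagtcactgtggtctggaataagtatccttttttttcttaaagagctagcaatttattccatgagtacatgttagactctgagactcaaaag
The sites at RBM19 and ADAMTSL1 and at the NPEPL1 promoter had CTCF and SMC1A peaks in all 4 lists of each antibody, and each held at least 1 match to the looser core. The match at RBM19 also met the stricter core, on the minus strand and 52 bp from the summit. The sites in MCM10 and DISP1 had neither protein in any list and held no match, as did the intergenic site on chromosome 5, which had CTCF in all 4 lists. The NPEPL1 window was 86.6% GC and the others 35.8% to 60.7%.

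Switch sites were weak STAG2 sites before knockdown. In WT, the STAG2 fold enrichment, which is the pileup at the summit over the expected background, had a median of 4.36 (2.61 to 9.61) in replicate 1, against 8.08 for the whole list. In replicate 2 it was 3.67 (1.77 to 7.91), against 4.75. Ranked within its own list, with the strongest peak near 100%, the STAG2 peak of the typical switch site stood at the 11.9th percentile in replicate 1 and the 34.1st in replicate 2, with 351 and 312 of the 353 sites under the 50th. The lost sites that never had a STAG1 peak had the same WT strength, with medians of 4.31 and 3.67, while all sites with a peak in both WT lists had medians of 9.26 and 8.59. The width of the union site had a median of 388 bp, against 862 bp for all sites with a peak in both WT lists.

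The STAG1 peaks acquired in STAG2 KD were weak as well. In replicate 1, 170 switch sites had a STAG1 peak, with a median fold of 4.06 (2.69 to 8.25) against 8.40 for the list and a median percentile of 12.5%. In replicate 2, 312 had one, with a median fold of 2.82 (1.64 to 32.5) against 4.53 for the list and a median percentile of 17.8%. Both replicates listed STAG1 at 129 sites (36.5%), only replicate 1 at 41 (11.6%) and only replicate 2 at 183 (51.8%). At most switch sites the gain therefore rested on 1 list. Called within 1 replicate alone, the rule gave 4256 sites in replicate 1 and 2600 in replicate 2, and with a −log10 q-value of at least 5 asked of every list it gave 523 sites, of which 25 overlapped a switch site. The lowest expected background, read from the fold and p-value columns, was 1.72 reads in the WT and 1.79 in the STAG2-KD STAG1 list of replicate 1, and 3.50 and 3.62 in replicate 2. At that background the smallest pileup listed in those lists was 8.26, 8.00, 8.79 and 8.997 reads. Absence of a WT STAG1 peak there means only that fewer reads than about this were piled up. Where the local background was higher, a peak could be absent with more reads.

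**Figure D1:**
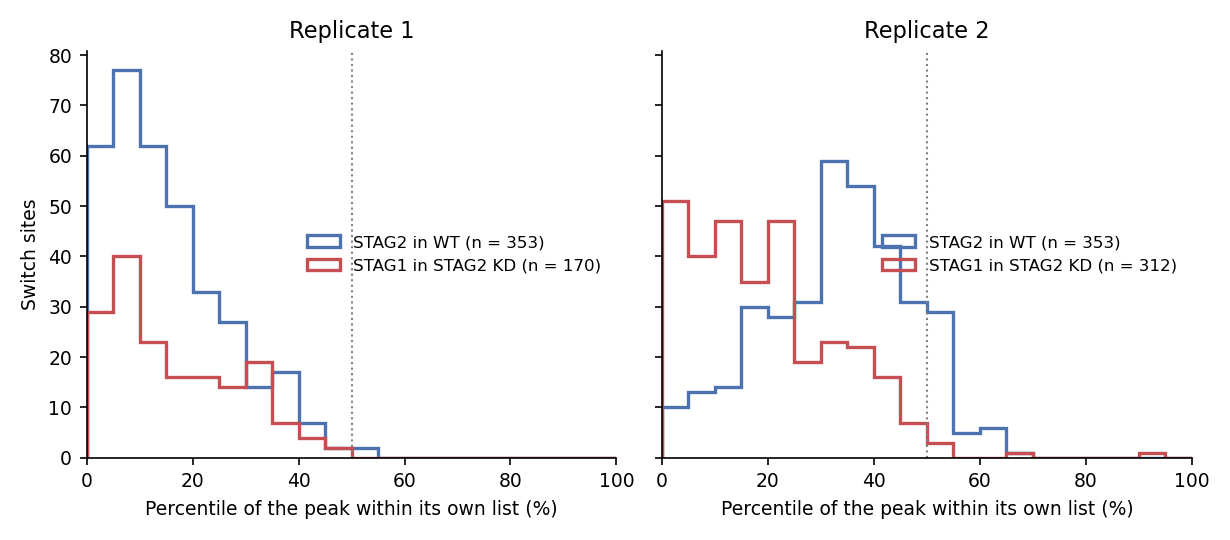
Percentile of the WT STAG2 peak (blue) and of the STAG2-KD STAG1 peak (red) of each switch site within its own list, where higher values are stronger peaks and the dotted line is the middle of the list. The STAG2 and STAG1 peaks lay under the line at 351 of 353 and 170 of 170 sites (replicate 1) and at 312 of 353 and 307 of 312 sites (replicate 2).

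Sites close to the limits of the rule show how thin the margins were. The weakest WT STAG2 peak that made a switch site had a −log10 p-value of 4.11 and a fold of 3.55 in replicate 1, near ATP4A, and of 2.08 and 1.84 in replicate 2, at chr12:131966725-131966945. The weakest STAG1 peak that did so had 3.98 and 3.23 in replicate 1, near ZNF536, and 2.08 and 1.87 in replicate 2, near LINC02698. Just outside the rule, a site at LINC02742 was kept out by a WT STAG1 peak with a −log10 p-value of 4.33 and a fold of 3.36 in replicate 1, and one at ARHGAP24 by a peak of 2.05 and 1.9 in replicate 2. Such single WT STAG1 peaks kept out 22 sites in replicate 1 and 482 in replicate 2. A STAG2 peak of replicate 2 alone in STAG2 KD, the weakest of them at AFAP1, kept out 1360 more.

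STAG1 summits lay close to the former STAG2 summits. The summit of the STAG1 peak lay a median of 71 bp from the WT STAG2 summit, and at 227 sites (64.3%) within 100 bp. The WT STAG2 summits of the 2 replicates lay a median of 49 bp from each other, with 281 sites within 100 bp and 3 over 250 bp. The STAG1 to STAG2 distance was thus larger than that between repeat STAG2 lists, with a longer tail. At 22 sites (6.23%) the STAG1 to STAG2 distance was over 250 bp, and at 30 the STAG1 summit lay outside the site. A WT STAG1 peak ended or began within 500 bp of 21 switch sites without touching them, and a STAG2-KD STAG2 peak within 500 bp of 31, which together were 36 sites. All values of distance are affected by the rule, which required the intervals to overlap.

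**Figure D2:**
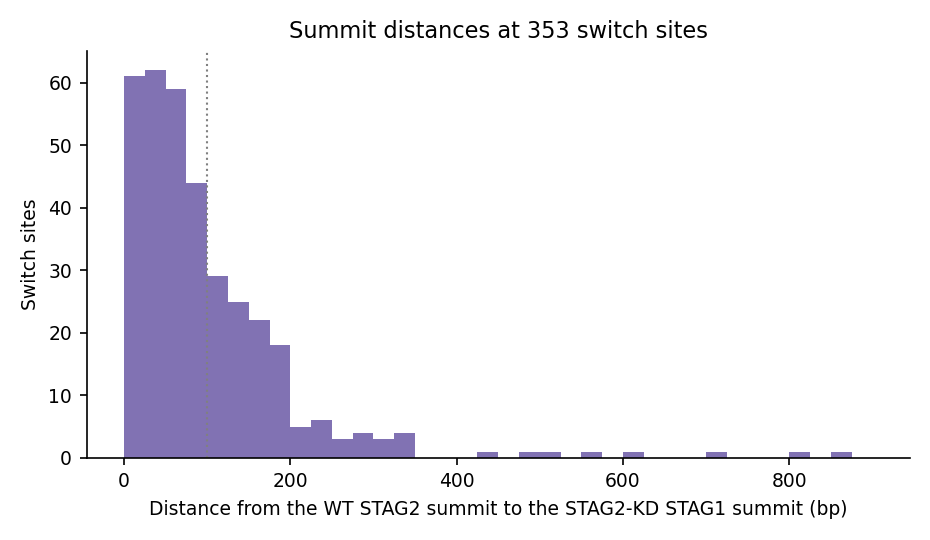
Distance in bp from the WT STAG2 summit to the STAG2-KD STAG1 summit at the 353 switch sites, in bins of 25 bp, with a dotted line at 100 bp. Most sites lie left of the line (227), and a tail of 22 sites lies beyond 250 bp.

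The 8 switch sites with the strongest STAG1 peaks over both STAG2-KD lists were spread over 8 chromosomes. First by rank was chr2:121101758-121102087, 1.79 kb from INHBB, which encodes an activin subunit. Its STAG1 fold in STAG2 KD was 3.95 in replicate 1 and 32.5 in replicate 2. The second value belonged to a wide peak whose summit lay 704 bp away, at a site with a WT STAG1 peak of fold 33.9 in replicate 1 and 20.4 in replicate 2 that ended 290 and 130 bp short of the switch site. Only the STAG1 peak of replicate 1 was centred on the switch site itself.

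The other 7 had STAG1 folds of 6.10 to 8.25 in replicate 1 and of 4.12 to 5.85 in replicate 2, all at or below the 54.8th percentile of their lists. The site in an exon of DGCR6 (chr22:18899869-18900088), a gene of the DiGeorge syndrome region, went from STAG2 folds of 3.79 and 3.89 in WT to STAG1 folds of 8.25 and 4.33 in STAG2 KD. The intergenic site chr5:116992904-116993141 went from STAG2 folds of 5.36 and 4.04 to STAG1 folds of 8.07 and 5.85. The NPEPL1 promoter site (chr20:57267690-57267941), at a transcript start 3.50 kb inside a gene for an aminopeptidase-like protein, went from 4.78 and 3.73 to 7.40 and 4.34. At these 3 sites STAG1 stood higher above background than STAG2 had, although the antibodies differ and their folds cannot be compared as amounts. The remaining 4 lay at chr3:5625580-5626022, chr18:76644518-76644996, chr16:29054012-29054280 in the pseudogene NPIPB10P, where reads can be shared with its near-identical relatives, and chr13:77486043-77486442.

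The 6 switch sites with the strongest WT STAG2 peaks were none of those named above for the strongest STAG1. Each set was picked by its own extreme, which by itself favours STAG2 here and STAG1 there. The site nearest CMKLR1, a chemerin receptor gene, 34.0 kb from its start (chr12:108766886-108767309), had WT STAG2 folds of 9.61 and 5.04 and STAG1 folds of 4.30 and 2.60 in STAG2 KD. A site near SMIM12P1 (chr2:109029244-109030145) had STAG2 folds of 9.19 and 7.91, and a STAG1 peak only in replicate 2, with a fold of 2.13. At the PROSER2 intron (chr10:11895451-11895903) STAG2 stood at 7.05 and 5.83 and STAG1 at 4.66 and 3.68. The other 3, at chr1:162939745-162940284, in CASC9 and at chr1:221006562-221007197, had STAG2 folds of 4.52 to 7.24 and STAG1 folds of 1.92 to 5.74, with STAG1 in both STAG2-KD lists at CASC9 alone.

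CTCF and SMC1A were not used to choose the sites. In the labels the input libraries are named by condition and replicate, not by antibody, so peak lists of different antibodies can share an input. The part of a shared input in the CTCF and SMC1A values below was not tested. CTCF peaks lay at 136 (38.5%) and 202 (57.2%) of the 353 switch sites in WT replicates 1 and 2, and at 124 (35.1%) and 171 (48.4%) in STAG2 KD. SMC1A peaks lay at 86 (24.4%) and 184 (52.1%) in WT, and at 78 (22.1%) and 158 (44.8%) in STAG2 KD. In both replicates each protein was listed at fewer switch sites after knockdown, and the replicates lay farther from each other than WT and STAG2 KD did. The mean share with CTCF was 47.9% ± 13.2 in WT and 41.8% ± 9.41 in STAG2 KD (SD, n = 2), and the difference was not resolved (two-sided exact permutation test, p = 0.667, with 0.333 the smallest p that 2 against 2 lists allow). The mean share with SMC1A was 38.2% ± 19.6 in WT and 33.4% ± 16.03 in STAG2 KD (SD, n = 2, two-sided exact permutation test, p = 0.667). Within replicates the change was −3.40 and −8.78 percentage points for CTCF and −2.27 and −7.37 for SMC1A. The mean SMC1A change of −4.82 points was −1.34 at a −log10 q-value of at least 5, 0 with equal numbers of peaks and 1.55 at the 129 sites with STAG1 in both STAG2-KD lists.

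Few single sites changed in both replicates. Loss was counted among sites with a peak in both WT lists and gain among sites with a peak in neither, and it had to hold in both STAG2-KD lists. CTCF was lost at 5 of 133 such switch sites (3.76%), against 1.06% of the union sites that could lose it, and was gained at 1 of 148 (0.676%), against 0.954% of those that could gain it. SMC1A was lost at 12 of 84 (14.3%), against 1.86% of the union sites that could lose it, and was gained at 8 of 167 (4.79%), against 6.94%. Union sites on the whole held stronger peaks than switch sites did, and the part of peak strength in these shares was not tested.

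Other sets of STAG2 sites served as comparisons for the switch sites. The first were the 1424 lost sites without a STAG1 peak in any list, the second the 492 lost sites with STAG1 in all 4 lists, and the third 395 sites that retained STAG2 in all 4 lists and gained STAG1 from none in WT. CTCF was listed at more switch sites than lost sites without STAG1 in 4 of 4 lists, by 18.6, 27.2, 19.3 and 26.1 percentage points in WT replicates 1 and 2 and STAG2-KD replicates 1 and 2 (mean 22.8 ± 4.49, SD, n = 4 lists). It was listed at fewer switch sites than lost sites keeping STAG1 in 4 of 4 lists, by a mean of −42.6 percentage points ± 4.49. Against the retained sites gaining STAG1 the difference changed sign between lists, with a mean of −0.107 ± 4.31. Switch sites thus stood between the lost sites with and without STAG1 in their CTCF. With equal numbers of peaks, which left 45 switch sites, the mean differences were 46.9, −16.5 and 22.1 points in the same order. Each of the first pair of differences had p = 0.12 by a two-sided exact sign-flip permutation test over the 4 lists, the smallest it can give, and an adjusted p of 0.1875 (Benjamini-Hochberg over 6 such tests), and the last had p = 1.

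**Figure D3:**
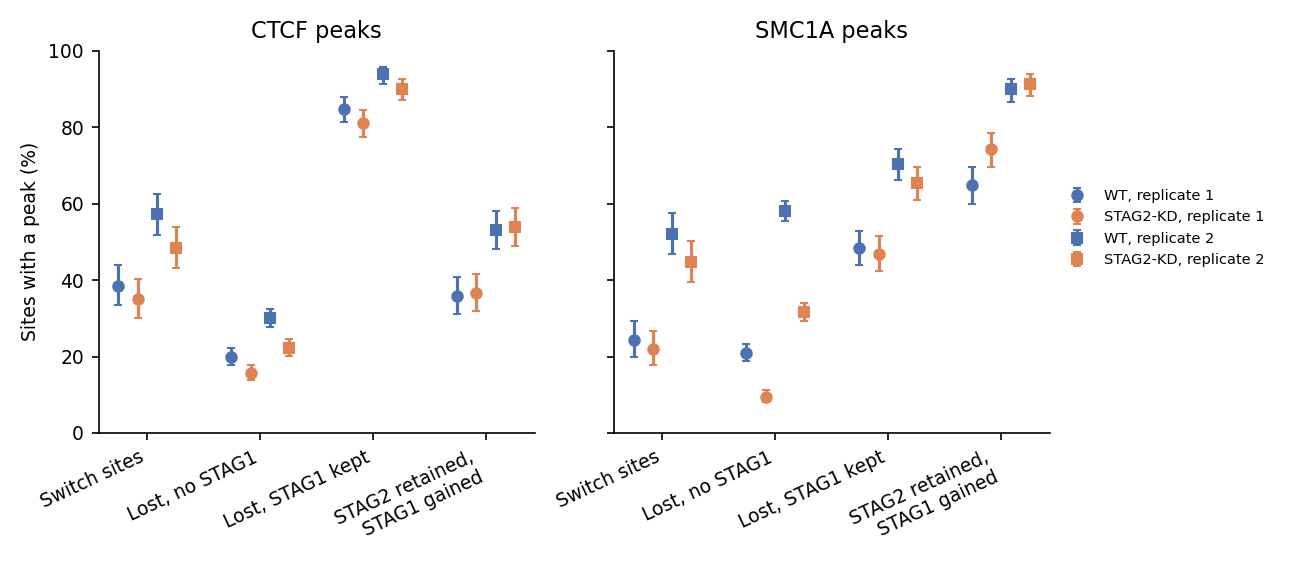
Percentage of sites with a CTCF peak (left) and with an SMC1A peak (right) for switch sites and the 3 sets of comparison sites, in each WT (blue) and STAG2-KD (orange) list of replicates 1 (circles) and 2 (squares), with 95% exact binomial intervals that cover counting error only. CTCF at switch sites (35.1% to 57.2%) lies above the lost sites without STAG1 and below those keeping it, and the lost sites without STAG1 show the widest gap in SMC1A between WT and STAG2 KD.

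The SMC1A shares of switch sites and of lost sites without STAG1 lay farther apart in STAG2 KD than in WT. In WT the share of switch sites with SMC1A was 3.37 percentage points above that of the lost sites without STAG1 in replicate 1. In replicate 2 it was −6.02 points from it, while in STAG2 KD it was 12.6 and 13.2 points above. The mean over the 4 lists was 5.78 ± 9.06 (exact sign-flip p = 0.375, adjusted p = 0.45). Its spread holds the difference between WT and STAG2 KD as well as that between replicates. The share with SMC1A changed by −2.27 and −7.37 percentage points at switch sites, by −11.5 and −26.5 at lost sites without STAG1, by −1.42 and −4.88 at lost sites keeping STAG1, and by 9.37 and 1.52 at retained sites gaining STAG1. Switch sites had less SMC1A than the lost sites keeping STAG1 (−21.9 ± 3.07 points) and than the retained sites gaining it (−44.2 ± 6.42), in 4 of 4 lists each (exact sign-flip p = 0.12, adjusted p = 0.1875). Median widths were 388, 414 and 752 bp for switch sites, lost sites keeping STAG1 and retained sites. The median WT STAG2 percentiles in replicate 1 were 11.9, 21.7 and 23.7 in that order. The part of width and strength in the CTCF and SMC1A differences was not tested.

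Single sites were then followed from WT to STAG2 KD. Of the 86 switch sites with SMC1A in WT replicate 1, 44 (51.2%) still had it in STAG2 KD, and of the 184 in replicate 2, 129 (70.1%) did. At lost sites without STAG1, 67 of 299 (22.4%) and 380 of 828 (45.9%) did. More SMC1A peaks therefore remained at switch sites in both replicates, by 28.8 and 24.2 percentage points, a comparison with 2 values whose smallest sign-flip p is 0.5. For CTCF the kept shares lay closer, at 80.9% and 81.2% against 75.4% and 71.7%. The WT SMC1A peaks had median folds of 5.12 and 3.44 at switch sites and of 4.53 and 3.31 at lost sites without STAG1, and the part of this difference in the kept shares was not tested. Where SMC1A was listed in both conditions, its fold at switch sites had a median log2 ratio of STAG2 KD to WT of −0.13 (replicate 1) and 0.01 (replicate 2). At lost sites without STAG1 this ratio was −0.17 and −0.21.

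**Figure D4:**
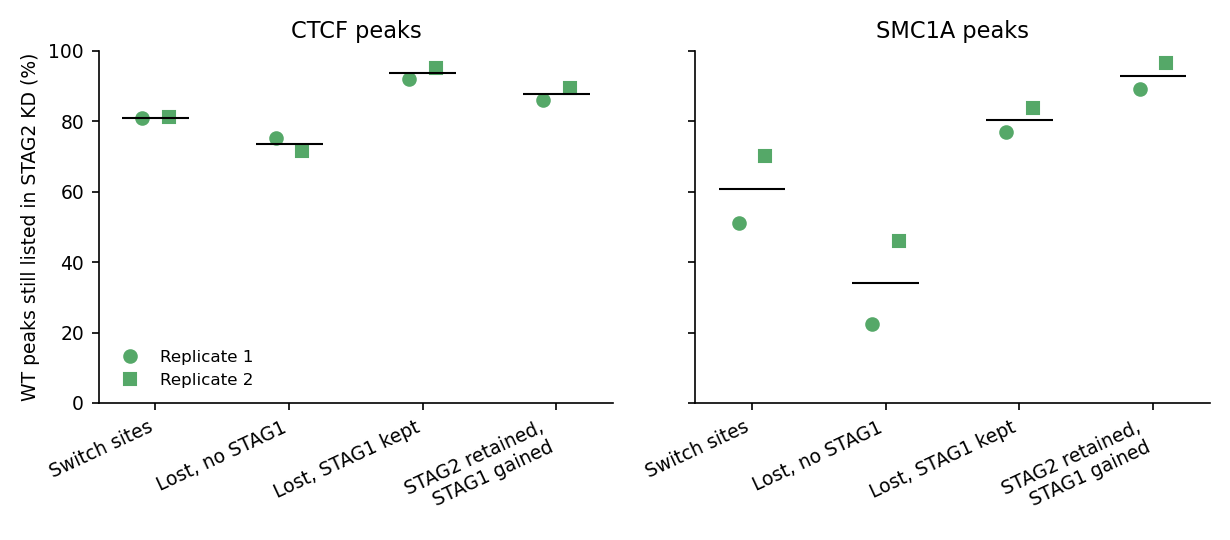
Percentage of WT CTCF peaks (left) and WT SMC1A peaks (right) still listed in STAG2 KD of the same replicate, for switch sites and the 3 sets of comparison sites, with circles for replicate 1, squares for replicate 2 and lines for their means. SMC1A was kept at 51.2% and 70.1% of the switch sites that had it, against 22.4% and 45.9% of the lost sites without STAG1.

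Switch sites were of mixed kinds. CTCF was listed in all 4 lists at 108 sites (30.6%) and in none at 141 (39.9%), while SMC1A was listed in all 4 at 43 (12.2%) and in none at 134 (38.0%). Both proteins were listed in every list at 15 sites (4.25%), and neither in any list at 33 (9.35%). CTCF without any SMC1A peak was seen at 101 sites and SMC1A without any CTCF peak at 108.

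The sites with lasting CTCF and those without it differed in the motifs they held. The CTCF core motif lay within 100 bp of the WT STAG2 summit at 21 of the 108 sites with CTCF in all lists (19.4%), at 4 of the 104 with CTCF in 1 to 3 lists (3.85%) and at 1 of the 141 with none (0.709%). The AP-1 motif, bound by FOS and JUN proteins at enhancers, ran the other way, at 5 (4.63%), 11 (10.6%) and 24 (17.0%). The SOX10 motif did so too, at 29.6%, 34.6% and 45.4%, while the E-box of the MITF type was at 36.1%, 34.6% and 24.1%, and TEAD and RUNX had no steady order. STAG1 was in both STAG2-KD lists at 51 (47.2%), 38 (36.5%) and 40 (28.4%) of them, and the median STAG1 fold in replicate 1 was 4.66, 4.04 and 3.95. Sites without CTCF did not lack SMC1A, which was listed at 33.3% and 66.0% of them in WT and at 24.1% and 53.9% in STAG2 KD. Of the sites without CTCF 58.9% lay in introns, against 46.3% of those with CTCF in all lists, and their median GC content was 41.8% against 49.8%. These are counts over sites and carry no test, and the part of GC content in the motif shares was not tested.

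**Figure D5:**
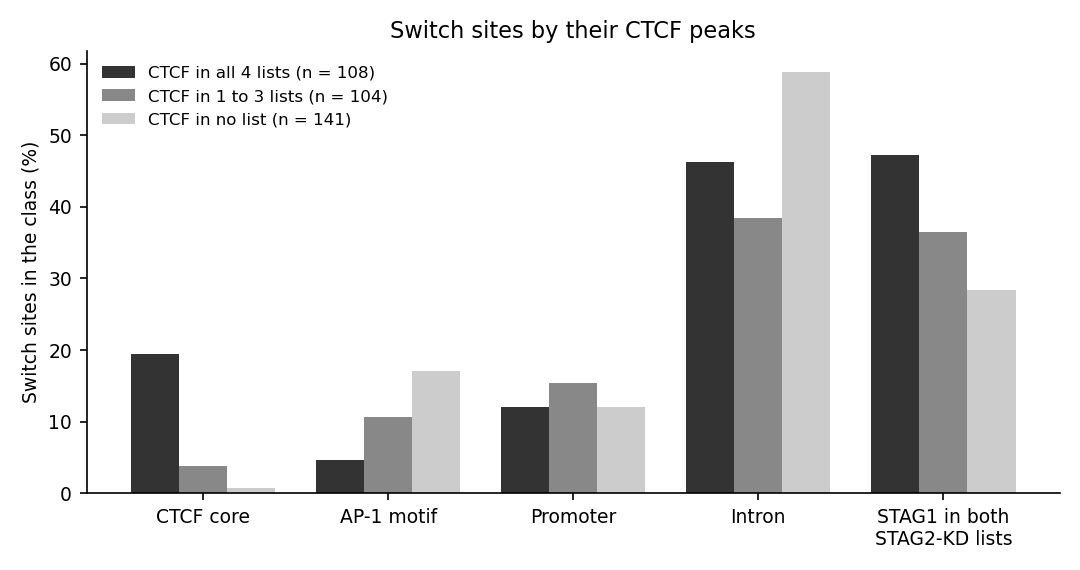
Percentage of switch sites with a CTCF core, an AP-1 motif, a promoter position, an intron position and STAG1 in both STAG2-KD lists, for sites with CTCF in all 4 lists (dark, n = 108), in 1 to 3 lists (grey, n = 104) and in no list (light, n = 141). The CTCF core falls from 19.4% to 0.709% and AP-1 rises from 4.63% to 17.0% as CTCF goes from all lists to none.

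Over all switch sites, 7.37% held the CTCF core, against 1.13% of windows of the same 201 bp placed 5 kb away. The core was at 3.51% of lost sites without STAG1, 15.7% of lost sites keeping STAG1, 1.77% of retained sites gaining STAG1 and 18.5% of all sites with STAG2 in both WT lists. AP-1 was at 11.3% of switch sites and 6.23% of the windows 5 kb away, and at 8.15% of lost sites without STAG1, 5.89% of lost sites keeping STAG1, 14.7% of retained sites gaining STAG1 and 8.71% of all sites with STAG2 in both WT lists. The other motifs searched on both strands were near their level 5 kb away at switch sites. TEAD (GGAATG) was at 12.7% against 11.0%, SOX10 (ACAANG) at 37.4% against 35.4%, RUNX (TGTGGT) at 16.4% against 13.3%, an E-box of the MITF type (CANGTG) at 30.9% against 36.0% and NFY (CCAAT) at 23.2% against 25.8%. YY1 (AAGATGGC) was at 7 sites, ETS (CCGGAAG) at 1 and NRF1 (GCGCATGCG) at 0, whereas ETS was at 24 of the 395 retained sites gaining STAG1 (6.08%). A match says only that these letters lie in the window, and some matches overlap others.

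Of the sites with CTCF and SMC1A in every list, the 6 with the strongest STAG1 were the NPEPL1 promoter, a site 68.4 kb from a start of ADAMTSL1 (chr9:17837962-17838330), an RBM19 intron (chr12:114264592-114264832), an intergenic site on chromosome 8, a site in OR4N2 (chr14:20264659-20264985) and an exon of CCDC74A (chr2:132288228-132288591). At RBM19, which encodes a ribosome biogenesis protein, the STAG2 folds of 5.14 and 2.08 in WT gave way to STAG1 folds of 5.74 and 3.68. CTCF there stood at 14.7 and 9.07 in WT and at 10.7 and 9.26 in STAG2 KD, and SMC1A at 5.02 and 3.11 and then at 5.80 and 5.14. At ADAMTSL1, which encodes a secreted matrix protein, STAG2 folds of 4.18 and 4.75 gave way to STAG1 folds of 5.04 and 4.23, with CTCF at 7.38 and 13.97 in WT and 8.87 and 14.63 in STAG2 KD. SMC1A there went from 7.42 and 6.26 to 6.25 and 7.15. At both sites CTCF and SMC1A stayed listed throughout. At CMKLR1, a site with CTCF in all 4 lists and SMC1A in 3, CTCF stood at 26.3 and 16.9 in WT and 21.9 and 14.3 in STAG2 KD.

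The sites with neither CTCF nor SMC1A in any list had STAG peaks alone. The strongest in STAG1 lay in an intron of MCM10, a DNA replication factor gene (chr10:13226293-13226558), with STAG2 folds of 5.77 and 3.89 in WT and STAG1 folds of 6.10 and 4.33 in STAG2 KD. A site at DISP1, which encodes a protein needed to release Hedgehog ligands (chr1:223170058-223170381), had STAG2 folds of 4.14 and 2.48 and STAG1 folds of 6.08 and 2.88. The other 4, at chr4:157464392-157464868, chr10:4469723-4470190, LINC02752 (chr11:11088673-11088917) and chr12:131966725-131966945, had STAG1 folds of 3.70 to 5.71 in replicate 1 and 3.25 to 4.12 in replicate 2. Whether such weak peaks without SMC1A are cohesin was not tested.

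Switch sites lay mostly away from gene starts. With promoters taken as positions up to 1 kb from any transcript start, 46 switch sites (13.0%) lay in one, while 15 (4.25%) lay in other exons, 49.0% in introns and 33.7% between genes. The lost sites without STAG1 and those keeping it had like promoter shares of 11.9% and 9.55%, whereas 50.9% of the retained sites gaining STAG1 were promoters and 22.3% of all sites with STAG2 in both WT lists were. Median GC content was 45.3% at switch sites and 55.2% at retained sites gaining STAG1. STAG1 was gained at 395 of the 556 retained sites without WT STAG1 (71.0%), against 19.9% of the lost ones. The median distance to the nearest STAG2 site present in all 4 lists was 21.6 kb for switch sites, with 98 (27.8%) within 10 kb, against 19.0 kb for lost sites without STAG1 and 14.2 kb for those keeping it.

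Of the 46 promoter sites, 27 were nearest a transcript start of a protein-coding gene, but 15 of these lay within 1 kb of the gene's own 5′ end and the rest at starts inside the gene. STAG1 was in both STAG2-KD lists at 9 of the 27, at RNF8, ZIC4 and GLUL within 1 kb of the 5′ end, and at inner starts of NPEPL1, HPS4, ANKRD11, CDR2, VILL and ZBTB18. These genes are named after their values were seen. RNF8 encodes a ubiquitin ligase of DNA damage signalling, HPS4, whose site lay 6.33 kb from the 5′ end, a protein needed to make melanosomes and other lysosome-related organelles, and GLUL glutamine synthetase. At RNF8 the STAG2 folds were 5.23 and 4.02 in WT and the STAG1 folds 4.09 and 3.24 in STAG2 KD. At HPS4 they were 3.27 and 3.16 and then 2.78 and 2.84, and at GLUL 4.08 and 3.45 and then 3.03 and 3.19. RNF8 and GLUL differed in CTCF, with a peak in 2 of 4 lists at the first and in 0 at the second and at HPS4, while SMC1A was listed in 4, 3 and 3. TFDP1, ABCA1, which encodes a cholesterol exporter, FLCN, PRKACA and NR3C2, each at the 5′ end, were among those with STAG1 in replicate 2 alone, at folds of 2.30 to 2.85. WT STAG1 peaks of replicate 2 lay 193 bp from the TFDP1 site (fold 3.07), 396 bp from FLCN (3.94) and 414 bp from ANKRD11 (5.95). Each was higher than the STAG1 fold of the site in STAG2 KD of that replicate. At MALSU1 the STAG1 fold in STAG2 KD was 7.77 in replicate 2, and a WT STAG1 peak of fold 9.93 in that replicate lay 80 bp from the site. No other promoter site named in this paragraph had a WT STAG1 peak within 500 bp.

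Within genes, switch sites lay in long ones. Of the 353, 228 lay inside a gene and 178 inside a protein-coding gene, and these host genes had a median length of 166 kb, against 27.3 kb for all protein-coding genes. They fell in 225 different genes, of which 3 held 2 sites each, namely CDH4, RSPO2 and SOX5. In CDH4, a cadherin gene of 688 kb, both sites had CTCF in all 4 lists and SMC1A in none, with a STAG1 fold of 3.03 in replicate 2 at chr20:59949795-59950111 and of 3.95 in replicate 1 at chr20:60111132-60111376. In SOX5, a transcription factor gene of the SOX family, both sites had STAG1 in replicate 2 alone, at folds of 3.05 and 3.27. A long gene holds more sites of any kind, and the host lengths were not compared with those of other sites. Sites were spread over all 23 chromosomes, from 3 on chromosome 21 to 36 on chromosome 1, with a median of 2813.5 kb to the next one and 0 within 10 kb.

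Few genes of the melanoma and immune signalling lists lay near a switch site, as few protein-coding genes of any kind did. Of 7 gene lists, 6 had no gene within 10 kb of one, namely 20 interferon pathway genes, 13 antigen presentation genes, 13 of the dedifferentiated melanoma state, 15 MAPK feedback genes, 14 melanoma drivers and 15 cohesin genes. Among all protein-coding genes 233 of 20090 (1.16%) had one, so that lists of this length would hold few at that rate. Of the 14 melanocyte lineage genes 1 had a switch site, PAX3, a transcription factor gene of the neural crest that acts upstream of MITF. The site lay in its intron (chr2:223084356-223085141), 1.38 kb from the nearest start. STAG2 stood there at 5.79 and 4.60 in WT, STAG1 only in replicate 2 of STAG2 KD, at 2.26, and CTCF in no list. SMC1A stood at 7.16 and 4.39 in WT and was listed in STAG2 KD only in replicate 2, at 2.92.

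The sites with STAG1 in both STAG2-KD lists were richer in CTCF than those that rested on replicate 2 alone. CTCF was listed in WT at 46.5% and 67.4% of the 129 sites with STAG1 in both lists, at 43.9% and 61.0% of the 41 with replicate 1 alone and at 31.7% and 49.2% of the 183 with replicate 2 alone. The CTCF core followed the same order, at 10.1%, 9.76% and 4.92%. SMC1A in WT replicate 2 did not, at 45.7%, 36.6% and 60.1%. At the 129 sites the share with SMC1A went from 20.9% and 45.7% in WT to 24.8% and 45.0% in STAG2 KD.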

How the data were processed

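Peak lists of 16 ChIP-seq libraries from M14 cells were used, with the input libraries present only as controls. The study's methods name bowtie2 for alignment to hg19, samtools and picard for filtering, and MACS2 for calling peaks against input. The authors deposited 1 list per library. The submitters' processing notes name Bowtie2 for replicate 1 but BWA for replicate 2. The deposited lists give a score, a fold enrichment, which is a ratio, a −log10 p-value and a −log10 q-value per peak, all from the authors. Lists of replicate 1 were limited by q-value (−log10 q of at least 2) and those of replicate 2 by p-value (−log10 p of at least 2), so their lengths differ for technical reasons, and presence or absence at these limits is not a test of differential binding.

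Peaks outside chromosomes 1 to 22 and X, 0.145% to 4.76% of a list, were left out. Union sites were built by merging overlapping STAG2 intervals, and each list contributed its strongest overlapping peak. Annotation came from GENCODE transcripts lifted to GRCh37, the assembly of hg19, and sequence from that genome. Files hold no read totals, and the depth was read from the MACS2 columns. The lowest background was 0.896 to 1.81 reads in replicate 1 and 2.08 to 3.64 in replicate 2, which corresponds to about 20.2 to 40.7 and 37.4 to 65.6 M reads if fragments were extended to the narrowest peak width of 120 and 150 bp on a mappable genome of 2.7 Gb, values the sources used here do not give. With MACS2's scaling it is the smaller of the library and its input.

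Conditions were compared over lists, never over sites, with two-sided exact permutation tests in scipy 1.17.1 (2 against 2 lists) and two-sided exact sign-flip tests over 4 lists. P-values measure the spread between these libraries, which may be technical. The sign-flip tests over 4 lists pool WT and STAG2-KD lists, so their spread also holds any difference between the conditions. Libraries with the same replicate number share a protocol and a peak limit per the labels and lists, and within-replicate differences are given as the paired values. The merging, site calls, tests and background reading were tested on simulated data. Named sites were the 8 with the strongest STAG1 in both STAG2-KD lists, the 6 with the strongest WT STAG2, up to 6 each with CTCF and SMC1A in all or in no list, members within 10 kb of a listed gene, and those nearest the limits. The sites and gene lists were chosen with earlier results of these data known.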

Additional observations from a re-analysis of the deposited data

How the results depend on the processing

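The number of switch sites was 129 with STAG1 required in both STAG2-KD lists and 2600 to 4256 when 1 replicate was used alone. It was 45 with equal numbers of peaks in the WT and STAG2-KD list of each antibody and replicate. It was 523 with a −log10 q of at least 5 in every list, but only 25 of those overlapped one of the 353 (7.08% of them), and 514 with at least 2, of which 252 did. The CTCF difference from retained sites gaining STAG1, −0.107 percentage points, became 8.51 with a −log10 q of at least 5, 7.41 with STAG1 in both lists, 22.1 with equal numbers of peaks, and −0.711 to 0.498 with 1 replicate left out. The SMC1A change at switch sites, −4.82 points, was 1.55 with STAG1 in both lists and 0 with equal numbers of peaks. Promoters made up 21.0% with a window of 2 kb, and the CTCF core was found at 22.9% with the looser motif and at 4.25% within 50 bp. The other 76 of 89 alternative values kept their direction, stayed within their intervals (shares) or moved by at most 1.5 times (site counts), but some differences among them moved by more. With equal numbers of peaks CTCF minus lost sites without STAG1 went from 22.8 to 46.9 points, CTCF minus lost sites keeping STAG1 from −42.6 to −16.5 and SMC1A minus lost sites without STAG1 from 5.78 to 2.50. The last was 9.76 with a −log10 q of at least 5, where the SMC1A change was −1.34. That change was −1.36 with at least 2 and −2.25 with 50% overlap. The CTCF change of −6.09 was −3.88 with STAG1 in both lists. The CTCF difference from retained sites was −3.08 with a −log10 q of at least 2 and −0.682 with 50% overlap. Kept CTCF peaks over lost sites without STAG1 went from 7.53 to 14.2 and 13.5 points with a −log10 q of at least 5 and STAG1 in both lists. Kept SMC1A peaks stayed between 24.2 and 34.2. The kept measures were chosen after seeing the data. Leaving out the CTCF and SMC1A lists of 1 replicate, with the 353 sites kept as called from both, gave −8.78 to −3.40 for the CTCF change. It gave −7.37 to −2.27 for the SMC1A change and 3.57 to 7.99 for SMC1A minus lost sites without STAG1. Such values restate the single replicates of the main result. They are no separate check, although they count among the 89.

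With replicates as blocks, the paired differences averaged −6.09 points for CTCF and −4.82 for SMC1A, with p = 0.5 in the exact sign-flip permutation test, the smallest that 2 pairs allow, and no call changed. No test over 2 or 4 lists could pass 0.05, so the p-values say nothing on stability. Weak peaks limit every count, since most switch sites lay in the lower part of their lists.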
